A study of Mus musculus with 4 samples.

Results

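The genes described here carry glucose into the cell, break it down to pyruvate and lactate, export the lactate, and sense or answer a shortage of oxygen. They were taken as a named set of 38 mouse genes, and a probe set belonged to one of them when the platform annotation of the array assigned it to that gene alone. Of the 38 genes 35 had such a probe set, with 77 probe sets between them, among the 45101 probe sets of the array. Gpi1, Eno1 and Pfkfb1 had none in the annotation used and were not analysed here. Gapdh was read only by 3 control probe sets of the manufacturer, which were left out of the test, so 34 genes were tested among the 13046 genes of the series that were bright enough.

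Glucose enters most cells through facilitative transporters of the Slc2a family, is trapped by phosphorylation through a hexokinase, and passes through a chain of enzymes whose members often exist as isoforms typical of muscle, liver or brain. Phosphofructokinase is the main control point of the chain, and fructose 2,6-bisphosphate, made and removed by the Pfkfb enzymes, is its strongest activator. When oxygen is short, prolyl hydroxylases of the Egln family no longer mark the alpha subunits Hif1a and Epas1 for destruction, and the stabilised factors induce many genes of glycolysis together with targets such as Adm, Bnip3 and Car9. Tumors are known for high glucose uptake, the property that clinical imaging with labelled glucose analogues uses.

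The tissue came from C57Bl/6 mice of 6 to 8 weeks of age, with 2 samples of normal ureter and 2 of ureter tumor. Per the labels, the mice carried R26rtTA, teto-Cre and Ncstnf/f, and were given doxycycline over 1 week, starting at 3 weeks of age, to induce recombination. Nicastrin, the product of Ncstn, belongs to gamma-secretase, the protease that frees the signaling part of Notch receptors, and the series asks about Notch signaling in cancer of the urothelium. R26 is a locus that is active in most cell types, so the labels do not limit the induced Cre to the urothelium. This text stands on normal and tumor samples alike, and the sources used here do not say how their genotypes differed. No animals are named for the samples, which are described as biological replicates, so each p-value reflects only how far these samples lie apart, which may be partly technical. Each sample was measured on 1 Affymetrix mouse genome array, and the values are signal intensities in linear units, scaled to the same trimmed mean on every array.

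Some facts of the whole series bear on every value. The normal arrays correlated across genes at r = 0.976 and the tumor arrays at 0.786. Signals of Ncstn were 99.0 and 66.2 in normal ureter against 81.6 and 130.6 in the tumors, and since its probes may lie outside the deleted part, this checks nothing. Genes of brown fat summed to between 81599 and 90448 on the normal arrays and between 83.3 and 324 on the tumor arrays, although the samples are labelled as urothelial tissue. Genes of umbrella cells, the surface layer of the urothelium, summed to between 25462 and 44270 on the normal arrays and between 758 and 863 on the tumor arrays. The tumor arrays also stood apart from each other, since kidney tubule genes summed to 1449 on tumor 1 and 96854 on tumor 2, and genes of basal urothelium to 92952 on tumor 1 and 3679 on tumor 2. The basal genes disagreed on tumor 2, where Krt5 (628) and Trp63 (440) lay below both normal values and Krt14 (1088) and Krt15 (1523) above both. The part of any other tissue in the differences below was not tested. In bulk tissue, fewer cells of a type and less RNA per cell cannot be told apart.

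Of the 34 genes tested, Slc2a1 rose and Pfkfb3 fell in the tumors, and 32 did not pass. The test was limma's, fitted over all 13046 genes on log2(signal + 16), and a gene passed when its two-sided p after Benjamini-Hochberg adjustment over all of them was under 0.05. Over all genes 187 passed, or 1.43%, with 64 higher (0.491%) and 123 lower (0.943%). The calls of both genes ended when normal replicate 1 was left out (adjusted p = 0.643) or normal replicate 2 was left out (adjusted p = 0.655), where 0 of all genes passed, against 884 and 889 at an unadjusted p under 0.05. The differences stayed near their size, at 1.80 and 2.08 for Slc2a1 and -2.25 and -2.56 for Pfkfb3. Without tumor replicate 1 the test passed 20 of the 34 and 4298 of all genes, and without tumor replicate 2 it passed 19 and 5502. In these fits 1 tumor array remained and the spread came from the normal arrays alone, with the tumor assumed to vary as they do, so these counts do not show more genes to differ. Without a normal array the spread came from the tumor arrays alone. At an unadjusted p under 0.05 there were 12 of the 34 genes, 5 higher and 7 lower, where all genes gave 21.5%, 10.6% higher and 10.9% lower. The 5 include Eno2, which was bright enough for the test only through its tumor values.

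The 34 genes did not move one way. In 10 genes the tumor values exceeded both normal values, in 13 they were lower than both, and in 11 the groups overlapped. The 10 include Eno2, which was bright enough for the test only through its tumor values. Eno2 also counts among the genes that differed at least 2-fold, given below. Over all genes tested 57.1% had groups that did not overlap, 29.4% with the tumors above and 27.7% below, beside 29.4% above and 38.2% below in the set. The median difference, tumor minus normal on the log2 scale, was -0.08 for the set (0.06 after quantile normalization) and 0.03 for all genes. Differences were larger in size than over all genes: the median size of the difference was 0.83 in the set and 0.45 over all genes. Of the 34 genes 13 differed at least 2-fold, where 21.9% of all genes did. The members were chosen with earlier results of these data known, and the part of that choice in this gap was not tested.

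**Figure D1:**
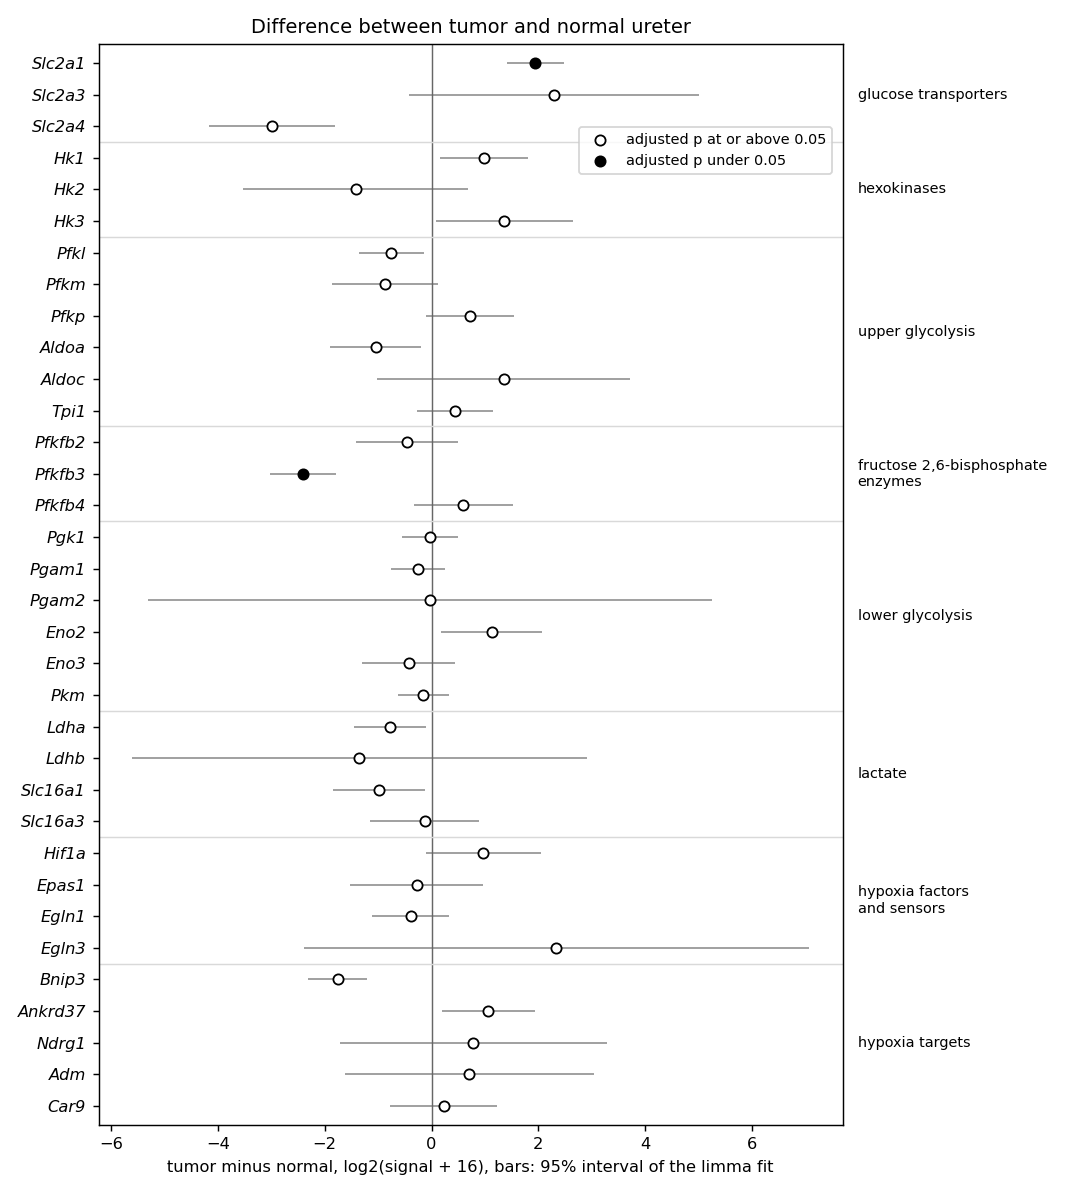
Difference between tumor and normal ureter for the 34 tested genes, ordered by role. Points give tumor minus normal on log2(signal + 16) from the limma fit with 2 arrays per group and bars its 95% interval. Filled points passed the test, which were Slc2a1 at 1.94 and Pfkfb3 at -2.40. The bars of Pgam2, Ldhb and Egln3 span both directions widely, since their tumor arrays lay far apart.

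The promoters of these genes often hold the core of the hypoxia response element, the site that HIF binds, and 4 of them are shown, those of both genes that passed the test, of Bnip3, which came next to the threshold, and of Egln3, which was high on 1 tumor array. Slc2a4 and Slc2a3, with differences of like or larger size, are not shown, since the promoter table used here has no entry for them. The letters searched were ACGTG and GCGTG on both strands, counted as separate matches also where they overlap, in the 250 bases before each annotated start. Sequences are from RefSeq on GRCm38.p6, where 34 of the 38 genes had an entry with 51 starts in all. A match stood before 40 of these 51 starts (78.4%), in 30 of the 34 genes, against 38.6% of the 32851 starts in the table and 44% of the 21262 starts of protein-coding genes. The member windows held 59.2% G and C, protein-coding windows 55.5% and all windows 53.2%, and the part of base composition in this gap was not tested. Windows of neighbouring starts can overlap, as for Eno1 and Aldoa, so starts are not independent. The share of genes with a match was not counted beyond the set. Each promoter below is written 5′ to 3′ on the strand of its gene, with matches in capitals.
Slc2a1: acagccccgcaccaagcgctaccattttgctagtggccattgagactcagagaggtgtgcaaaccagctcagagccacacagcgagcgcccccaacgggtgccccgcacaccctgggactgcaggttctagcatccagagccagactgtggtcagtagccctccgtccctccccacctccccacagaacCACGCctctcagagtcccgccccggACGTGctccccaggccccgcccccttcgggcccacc
Pfkfb3: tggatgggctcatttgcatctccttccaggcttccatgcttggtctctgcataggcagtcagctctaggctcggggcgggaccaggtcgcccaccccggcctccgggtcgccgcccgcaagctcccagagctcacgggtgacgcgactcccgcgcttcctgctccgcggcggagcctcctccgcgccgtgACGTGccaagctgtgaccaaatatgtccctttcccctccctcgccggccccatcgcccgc
Bnip3: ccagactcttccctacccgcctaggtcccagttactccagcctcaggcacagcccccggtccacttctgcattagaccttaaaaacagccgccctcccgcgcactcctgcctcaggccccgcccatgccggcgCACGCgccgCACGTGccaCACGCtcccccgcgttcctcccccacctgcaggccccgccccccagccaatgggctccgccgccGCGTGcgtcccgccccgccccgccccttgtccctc
Egln3: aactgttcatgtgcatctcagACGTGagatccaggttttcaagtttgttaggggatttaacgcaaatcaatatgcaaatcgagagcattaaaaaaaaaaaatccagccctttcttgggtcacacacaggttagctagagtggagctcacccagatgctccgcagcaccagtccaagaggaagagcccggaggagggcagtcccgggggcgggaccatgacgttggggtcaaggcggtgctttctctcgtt
The Slc2a1 window is chr4:119108495-119108744 on the plus strand, and its 2 matches begin 61 and 36 bases before the start. The Pfkfb3 window is chr2:11553930-11554179 on the minus strand, before the outermost of 2 listed starts, with 1 match 60 bases before it. The Bnip3 window is chr7:138909507-138909756 on the minus strand and holds 5 matches, the farthest beginning 117 and the nearest 35 bases before the start. The Egln3 window is chr12:54203875-54204124 on the minus strand, with 1 match 229 bases before the start. Of these 4 genes Slc2a1 rose, Pfkfb3 fell, Bnip3 was lower on both tumor arrays and Egln3 was high on 1 of them. A match is a run of letters and was not measured as a binding site.

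Among the glucose transporters, the widely expressed Slc2a1 rose and the insulin-responsive Slc2a4 of muscle and fat had a large negative difference. Slc2a1, read by 1434773_a_at, gave signals of 1288 and 1569 in normal ureter against 5823 and 5217 in the tumors. Both tumor arrays were high, at similar values, and the groups did not overlap. The rise was 1.94 on the log2 scale, or 3.84-fold (SE 0.20, adjusted p = 0.0441, 2 arrays per group), and the gene's 3 bright probe sets gave 1.90 to 2.02. Its adjusted p was 0.051 without the filter on dim genes and 0.0524 when probe sets were averaged, so the call did not hold under either setting.

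Slc2a4 (1415958_at) gave signals of 3197 and 3480 in normal ureter against 271 and 610 in the tumors. Both tumor arrays were low. Its difference was -2.98 (SE 0.43), which missed the threshold with adjusted p = 0.072, and a further probe set gave -3.36 (adjusted p = 0.0403 in a fit over every probe set). The fat cell list, whose tissue uses this transporter, moved with it, from between 227466 and 246114 on the normal arrays to 37521 on tumor 1 and 6217 on tumor 2, and its 5 tested genes all lay lower on both tumor arrays. Its part in the difference was not tested. The order of the tumor arrays differed, with Slc2a4 lowest on tumor 1 and the fat cell list lowest on tumor 2.

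Slc2a3, a high-affinity transporter of neurons and white blood cells, gave signals of 155 and 83.8 in normal ureter against 1576 and 241 in the tumors. Tumor 1 stood far above the other arrays and tumor 2 a little above both normal arrays. Its difference was 2.29 (SE 0.99, adjusted p = 0.286), from 1437052_s_at, whose name marks probes shared between transcripts. Another probe set with such a name, 1455898_x_at, gave 1.57. The remaining probe sets of the gene, 1427770_a_at and 1421924_at, were too dim for the test and gave 0.02 and -0.01. The neutrophil list, summed over the 5 of 7 genes with a probe set, was ordered the same way, at 542 and 407 on the normal arrays, 10320 on tumor 1 and 1189 on tumor 2. S100a8 and S100a9 made up most of the sum on both tumor arrays. Csf3r also lay above the normal arrays on both, but Mmp9 was lower on tumor 2 (111) than on the normal arrays (231 and 225).

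**Figure D2:**
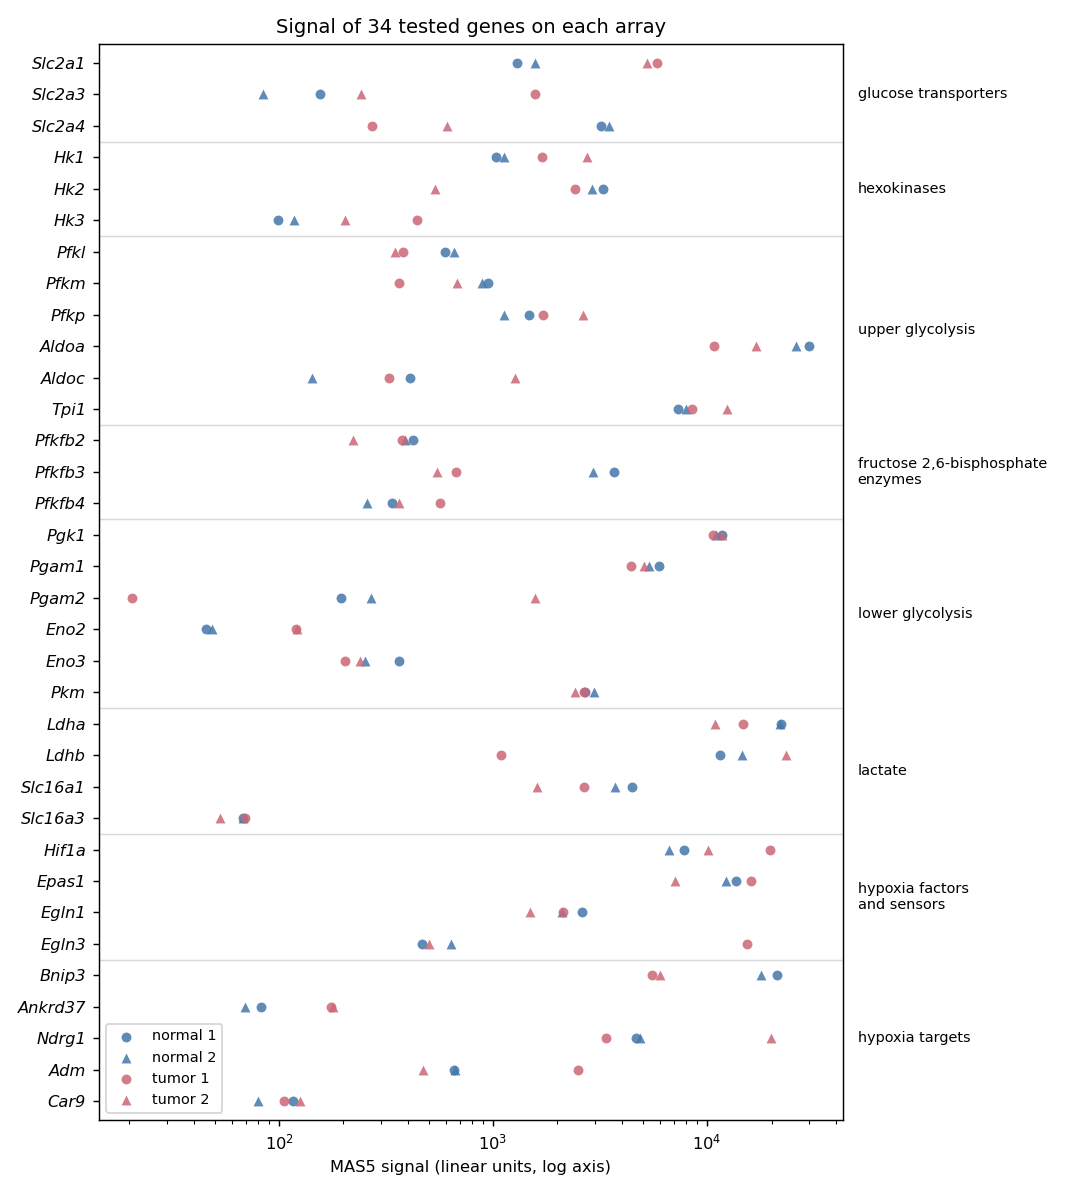
MAS5 signal of each tested gene on each of the 4 arrays, on a log axis, grouped by role, with normal arrays in blue and tumor arrays in red. Slc2a1 lies to the right and Slc2a4, Pfkfb3 and Bnip3 to the left on both tumor arrays, while Ldhb, Ndrg1 and Pgam2 have a tumor array on either side of the normal ones, and Egln3 is high on tumor 1 alone. Levels of different genes are not comparable, since each probe set has its own response.

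The hexokinases, which trap glucose in the cell as glucose 6-phosphate, pointed different ways, and 0 of 3 passed. Hk1, the form found in most tissues, gave signals of 1033 and 1130 in normal ureter against 1685 and 2754 in the tumors. Both tumors exceeded the normal values, and the difference was 0.99 (SE 0.30, adjusted p = 0.183). Hk2, the insulin-regulated form of muscle and fat that many cancers express, gave 3270 and 2901 in normal ureter against 2408 and 535 in the tumors. It was low on tumor 2 and only a little lower on tumor 1, with a difference of -1.42 (SE 0.77, adjusted p = 0.365). Hk3, a form of white blood cells, gave 98.6 and 117 in normal ureter against 442 and 204 in the tumors. Its difference was 1.36 (SE 0.47, adjusted p = 0.214), but the other bright probe set of the gene gave 0.30 with overlapping groups.

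Of the 6 tested enzymes that split hexose phosphates into triose phosphates, 0 passed, and the median difference was -0.16. Phosphofructokinase has a liver, a muscle and a platelet form. Pfkl, the liver form, gave signals of 596 and 655 in normal ureter against 381 and 349 in the tumors, a difference of -0.75 (SE 0.22, adjusted p = 0.177). Its dimmer probe sets gave -0.29 and 0.38, so the direction of Pfkl depended on the probe set. Pfkm, the muscle form, gave 948 and 892 in normal ureter against 362 and 678 in the tumors, a difference of -0.87 (SE 0.36, adjusted p = 0.274). Pfkp, the platelet form, lay the other way, with 1464 and 1125 on the normal arrays, 1718 and 2625 on the tumor arrays and a difference of 0.72 (SE 0.30, adjusted p = 0.273). Of its 2 dimmer probe sets 1 gave -0.43.

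Aldolases cut fructose 1,6-bisphosphate. Aldoa, the muscle and general form, gave signals of 29917 and 25950 in normal ureter against 10738 and 16884 in the tumors. Its values were low in both tumors, and the difference was -1.05 (SE 0.31, adjusted p = 0.178). All 5 of its probe sets pointed the same way, from -1.19 to -0.71. The names of all 5 mark probes shared between transcripts, so they are not separate readings of Aldoa alone. Aldoc, the brain form, gave 411 and 142 in normal ureter against 327 and 1267 in the tumors, so only tumor 2 stood out and the normal arrays differed 2.70-fold between themselves. Its difference was 1.35 (SE 0.86, adjusted p = 0.431). Tpi1, which interconverts the triose phosphates, gave 7277 and 7981 in normal ureter against 8529 and 12405 in the tumors. Its 3 probe sets gave 0.43 to 0.64, and the brightest had adjusted p = 0.407.

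Pfkfb3 fell in the tumors. It makes fructose 2,6-bisphosphate and so drives glycolysis. Its signals were 3659 and 2929 in normal ureter against 671 and 546 in the tumors (1416432_at). Both tumor arrays were low, at similar values, and the groups did not overlap. The gene fell by 2.40 on the log2 scale, or was 5.30-fold lower (SE 0.22, adjusted p = 0.0425), and a dimmer probe set gave -1.36. When probe sets were averaged the difference was -1.88 with adjusted p = 0.0645, and the call did not hold.

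The other tested enzymes of this kind did not pass. Pfkfb4, a form induced by low oxygen, gave 338 and 257 in normal ureter against 566 and 363 in the tumors, a difference of 0.60 (SE 0.34, adjusted p = 0.387). Pfkfb2, the heart form, gave 420 and 386 in normal ureter against 375 and 221 in the tumors, a difference of -0.46 (SE 0.35, adjusted p = 0.498). The 3 genes thus had groups that did not overlap, as had 57.1% of all genes tested, with Pfkfb4 above and Pfkfb2 and Pfkfb3 below.

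Of the 6 tested enzymes that carry triose phosphate to pyruvate 0 passed, and the median difference was -0.09. Pgk1, which yields the first ATP of the chain, gave 11794 and 11038 in normal ureter against 10666 and 11741 in the tumors. The groups overlapped, and the difference was -0.03 (95% interval -0.55 to 0.49), or 0.14 after quantile normalization. A dimmer probe set, 1439435_x_at, whose name marks shared probes, gave 1651 and 1634 against 5899 and 3750, a difference of 1.51, so the probe sets of Pgk1 disagree. Pgam1, the general phosphoglycerate mutase, gave 5957 and 5334 against 4405 and 5053, and Pkm, the pyruvate kinase of most tissues, gave 2675 and 2976 against 2654 and 2421. Their differences were -0.26 (95% interval -0.77 to 0.25) and -0.15 (95% interval -0.63 to 0.33), and splice forms of Pkm were not analysed here.

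Eno2, the neuronal enolase, gave 45.4 and 48.4 in normal ureter against 120 and 122 in the tumors. The arrays of a group agreed closely and the difference was 1.12 (SE 0.34, adjusted p = 0.183), but the normal values were under the 54.6 that the filter asks for, so the gene was tested only through its tumor values. Eno3, the muscle enolase, gave 364 and 252 against 203 and 240, a difference of -0.43 (SE 0.32). Pgam2, the muscle form of the mutase, gave 194 and 270 on the normal arrays, 20.7 on tumor 1 and 1572 on tumor 2. Tumor 1 was lower and tumor 2 higher than normal ureter, and the difference of -0.02 (95% interval -5.30 to 5.26) describes neither of them, turning to 0.05 after quantile normalization.

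Gapdh, often used as a reference gene, was read by control probe sets along its transcript. The 3′ probe set gave 15197 and 16232 in normal ureter against 12146 and 16430 in the tumors. The 5′ probe set gave 16520 and 17588 in normal ureter against 8020 and 11392 in the tumors. The ratio of 3′ to 5′ signal was 0.920 and 0.923 in normal ureter against 1.51 and 1.44 in the tumors, a usual sign of RNA quality, while the same ratio for Actb was 2.90 and 2.82 on the normal and 2.47 and 2.63 on the tumor arrays. Depending on the probe set, Gapdh therefore gave a difference of -0.15 (3′), -0.52 (middle) or -0.83 (5′), and it was not tested. The part of RNA quality in the other differences was not tested.

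Of 4 genes of lactate handling 0 passed the test, and the median difference was -0.88. Ldha, the lactate dehydrogenase subunit that favours lactate formation, gave 22070 and 21849 in normal ureter against 14782 and 10937 in the tumors. Its tumor values were both low, with a difference of -0.79 (SE 0.25, adjusted p = 0.19). Slc16a1, a monocarboxylate transporter that moves lactate and pyruvate, gave 4456 and 3732 in normal ureter against 2660 and 1597 in the tumors, a difference of -0.98 (SE 0.31, adjusted p = 0.197). Slc16a3, the lactate exporter of glycolytic cells, was dim on every array, with 68.0 and 67.7 against 69.1 and 52.8 and a difference of -0.13 (95% interval -1.15 to 0.89), or 0.08 after quantile normalization.

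Ldhb, the subunit that favours lactate use, split the tumors. It gave 11535 and 14573 on the normal arrays, 1094 on tumor 1 and 23350 on tumor 2. Tumor 1 lay far below and tumor 2 above both normal arrays, which all 4 probe sets of the gene showed, with signals of 849 to 1094 on tumor 1 and 21113 to 25419 on tumor 2. The difference was -1.35 (95% interval -5.60 to 2.90), and without tumor replicate 1 it was 0.85. Kidney tubule genes were ordered the same way, with 11075 and 17536 on the normal arrays, 1449 on tumor 1 and 96854 on tumor 2, and their part in the values of Ldhb was not tested.

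The oxygen-sensing genes gave 0 of 4 past the test. Hif1a, the general alpha subunit, gave 7842 and 6639 in normal ureter against 19774 and 10053 in the tumors. High values stood on both tumor arrays, tumor 1 more so, with a difference of 0.96 (SE 0.39, adjusted p = 0.266). Its other bright probe sets gave 0.37 and -0.33. HIF activity is set mainly by protein stability, which these arrays do not measure. Epas1, the alpha subunit typical of endothelium, gave 13653 and 12205 against 16039 and 7074, a difference of -0.28 (95% interval -1.52 to 0.97). The endothelial list summed to 6072 and 5496 in normal ureter against 5551 and 3994 in the tumors. Egln1, the main oxygen sensor, gave 2598 and 2088 against 2115 and 1484, a difference of -0.39 (95% interval -1.11 to 0.34).

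Egln3, a prolyl hydroxylase that is itself induced by HIF, was the most uneven of these 4 genes between the tumors. It gave 467 and 634 on the normal arrays, 15389 on tumor 1 and 503 on tumor 2. Only tumor 1 was high, and tumor 2 lay between the normal arrays. A further probe set was also high on tumor 1 alone, with 111 and 134 on the normal arrays and 2647 on tumor 1, while its 89.1 on tumor 2 lay below both normal arrays. The difference of 2.34 (SE 1.72, adjusted p = 0.49) rested on tumor 1, and without it the value was -0.11.

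The hypoxia targets gave 0 of 5 past the test and did not move together. Bnip3, a mitochondrial protein that starts the removal of mitochondria, gave 21235 and 17949 in normal ureter against 5504 and 6001 in the tumors. Both tumor arrays were low, at similar values. The difference was -1.76, or 3.39-fold lower (SE 0.20), and it missed the threshold with adjusted p = 0.0521. It passed with a pseudocount of 64 (adjusted p = 0.0483) and with centring on the median (0.047). It also passed with the filter at the 60th percentile and with every probe set tested (0.0464 each). It did not pass with a pseudocount of 1 (0.0542), after quantile normalization (0.0557), or without the filter or with averaged probe sets (0.0645 each). Nor did it pass without the intensity trend (0.072) or with the replicate block (0.148). Brown fat and fat cell genes, from tissues rich in mitochondria or fat, were also far lower on both tumor arrays, and their part was not tested.

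Ankrd37, a small ankyrin repeat protein induced by HIF, lay the other way. It gave 82.6 and 69.6 in normal ureter against 175 and 178 in the tumors, a difference of 1.07 (SE 0.32, adjusted p = 0.18). Its groups did not overlap, and the tumor arrays agreed closely. Car9, a carbonic anhydrase widely used as a hypoxia marker, was dim and gave 116 and 79.8 against 105 and 126, a difference of 0.22 (95% interval -0.78 to 1.22). No difference in Car9 was detectable with these arrays.

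Adm and Ndrg1 each stood out on 1 tumor array, and not on the same one. Adm, which encodes the vasodilator peptide adrenomedullin, gave 660 and 661 on the normal arrays, 2500 on tumor 1 and 470 on tumor 2. Tumor 1 was high and tumor 2 below the normal arrays. The second probe set was also high on tumor 1, at 2695, but its 517 on tumor 2 lay above its normal values of 506 and 475. Ndrg1, a stress-induced gene also expressed in differentiated epithelium and kidney, gave 4651 and 4858 on the normal arrays, 3359 on tumor 1 and 19912 on tumor 2. Only tumor 2 was high, and the group differences from the 5 probe sets of the gene ran from 0.62 to 1.26. The differences of Adm and Ndrg1 were 0.71 (SE 0.85) and 0.78 (SE 0.91), with adjusted p = 0.671 and 0.662.

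The tumor arrays differed from each other by at least 4-fold in 7 of the 34 genes, against 8.52% of all genes, while the normal arrays did so in 0 of the 34, against 0.376% of all genes. Egln3 (29.7-fold), Slc2a3 (6.20-fold), Adm (5.18-fold) and Hk2 (4.40-fold) were higher on tumor 1. Pgam2 (43.3-fold), Ldhb (21.0-fold) and Ndrg1 (5.91-fold) were higher on tumor 2. In 8 of the 34 genes, or 23.5%, the normal mean fell between the tumor arrays, as in 30.4% of all genes. Of these 8, Pgk1 (1.10-fold) and Slc16a3 (1.24-fold) had tumor arrays close to each other, and the others, from Epas1 (2.26-fold) to Pgam2, did not. The tumor arrays lay closest in Eno2 (1.01-fold), then in Ankrd37, Pfkl and Bnip3 (up to 1.09-fold), and they were 1.12-fold apart in Slc2a1 and 1.22-fold in Pfkfb3.

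**Figure D3:**
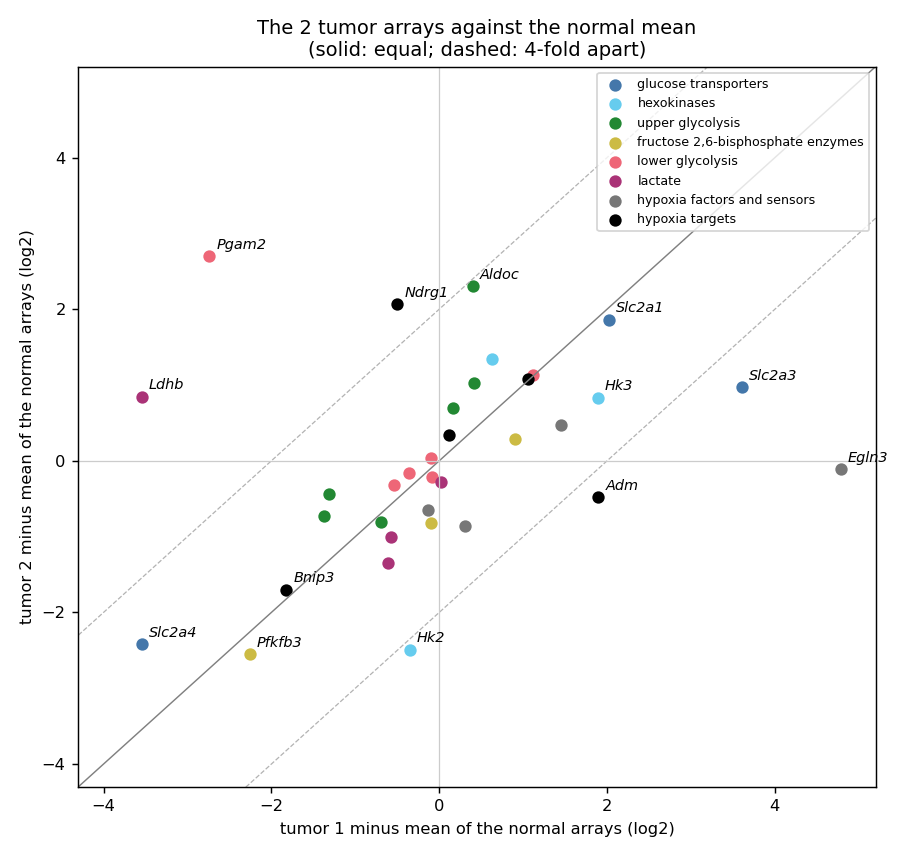
Each point is a gene, with tumor 1 minus the mean of the normal arrays on the horizontal axis and tumor 2 minus the same mean on the vertical axis, both on log2(signal + 16). Genes on the solid line had equal differences on both tumor arrays, as Slc2a1 nearly did at 2.02 and 1.86, and genes beyond the dashed lines were at least 4-fold apart, such as Egln3 at 4.78 and -0.11.

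Related isoforms were compared as ratios on the same array, centred on the normal mean, since levels of different probe sets have no common scale. These ratios are descriptions with 2 arrays per group. The ratio of Slc2a1 to Slc2a4 was higher by 5.57 and 4.28 on the log2 scale on tumors 1 and 2, with the normal arrays at -0.08 and 0.08. The ratio of Pfkp, the platelet form, to Pfkm, the muscle form, was higher by 1.72 and 1.45, beyond the normal spread of -0.14 to 0.14. The ratio of Hk2 to Hk1 was lower, at -0.99 and -3.83, and that of Aldoc to Aldoa higher, at 1.77 and 3.03. These 4 ratios lay on 1 side of the normal arrays on both tumor arrays, as did Slc16a3 to Slc16a1 at 0.63 and 1.06.

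The lactate dehydrogenase ratio took opposite directions. Ldha to Ldhb was 2.98 on tumor 1 and -1.85 on tumor 2, with the normal arrays at 0.18 and -0.18. Pgam2 to Pgam1 also split, at -2.39 on tumor 1 and 2.85 on tumor 2. So did Slc2a3 to Slc2a1, at 1.59 and -0.89, though its normal arrays already lay at 0.53 and -0.53. Hk3 to Hk1 (1.26 and -0.50) and Pfkl to Pfkm (0.62 and -0.38) split as well, which makes 5 of the 10 ratios. A ratio shows that 2 genes differed unequally, and not which of them moved.

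**Figure D4:**
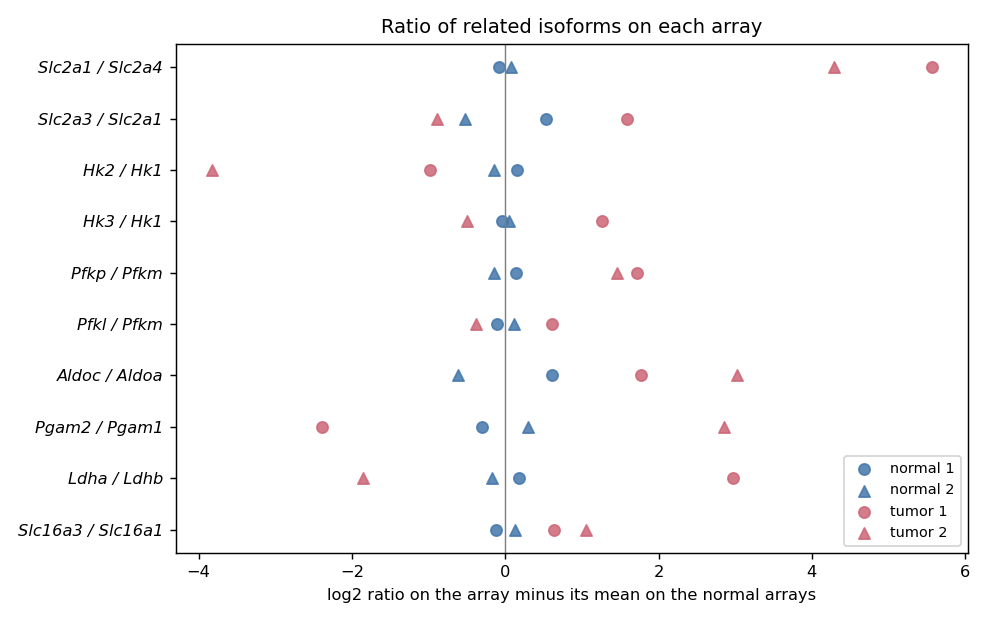
Log2 ratio of 10 isoform pairs on each array, minus the mean of the normal arrays, so that the normal arrays lie around 0. The tumor arrays lie together and away from 0 for Slc2a1 to Slc2a4 and for Pfkp to Pfkm, and on opposite sides of 0 for 5 pairs, most widely for Ldha to Ldhb and Pgam2 to Pgam1.

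Marker lists of other cell types moved with several of these genes, and the values are given beside them. Skeletal muscle markers, where the muscle isoforms are typical, were dim, with sums of 2277 to 2811 on the normal arrays and 631 to 675 on the tumor arrays, and 5 of 11 genes on the normal and 7 or 8 on the tumor arrays lay under the filter limit. Pgam2, Pfkm, Eno3 and Slc2a4 are also expressed outside skeletal muscle. Macrophage markers summed to 10523 and 8780 on the normal and 47581 and 35130 on the tumor arrays, with all 7 genes above both normal arrays and 2 past the test. Hk3 and Slc2a3, both expressed in white blood cells, were highest on tumor 1, as were macrophage and neutrophil markers. Mitosis genes summed to 589 and 635 on the normal and 7847 and 2798 on the tumor arrays, higher on both tumor arrays in all 5 genes. Smooth muscle markers, at 57056 and 45871 on the normal arrays, summed to 17071 on tumor 1 and 27101 on tumor 2. Aldoa and Pfkm were also lower on tumor 1 than on tumor 2, but 3 of the 7 smooth muscle genes, Myh11, Cnn1 and Actg2, were lower on tumor 2, and Acta2 (9957 and 18209) made up most of the sum. How much of each gene's difference comes from other cell types was not tested.

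**Figure D5:**
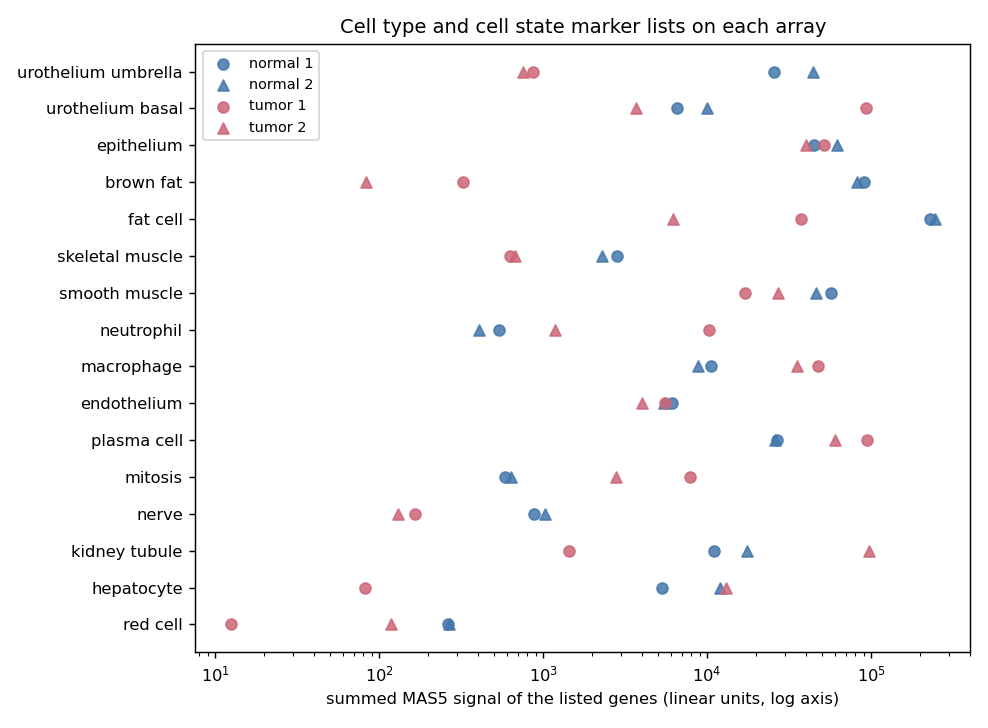
Summed MAS5 signal of each marker list on each array, on a log axis, from the brightest probe set of every listed gene that has one. Brown fat, fat cell and umbrella cell lists lie lower on both tumor arrays, macrophage and mitosis lists higher on both, and the sums of the kidney tubule and basal urothelium lists have the tumor arrays on opposite sides of the normal ones. Within the basal list, Krt5 and Trp63 were below the normal arrays on tumor 2 and Krt14 and Krt15 above them.

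Routes that branch from glycolysis were read from 9 lists with 109 genes, of which 90 were tested. Of these 1 rose and 4 fell, with 18 above and 46 below on both tumor arrays. Over all genes tested 1.43% passed, 29.4% lay above and 27.7% below, and these shares also apply beside the counts of each list that follow. The list of pyruvate and acetyl-CoA genes, which holds enzymes and an inhibitor of them alike, had the lowest median of the 9 lists, at -1.61. It gave 1 of 14 past the test, 12 below and 2 above. Pdk4, which switches off pyruvate dehydrogenase in fasting and in fat and muscle, fell by 5.52 on the log2 scale (adjusted p = 0.0412), from signals of 13897 and 12456 to 171 and 422. Pdhb, a subunit of pyruvate dehydrogenase, and Pcx, pyruvate carboxylase, missed the threshold with differences of -2.68 and -3.25 (adjusted p = 0.0503 and 0.0528).

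Glycogen genes gave 2 of 10 past the test, 0 above and 9 below, with a median of -1.34. Gbe1, the branching enzyme, fell by 3.03 on the log2 scale (adjusted p = 0.0402). Gys1, the muscle glycogen synthase, fell by 2.05 (adjusted p = 0.048). In the pentose phosphate route, which makes NADPH and ribose, 0 of 8 passed, 6 lay below and 1 above, and the median was -0.89. For Taldo1, its transaldolase, the difference was -1.47 (adjusted p = 0.0657), and for Tkt, its transketolase, -1.77 (adjusted p = 0.124). The 6 gluconeogenesis genes gave 0 past the test, 0 above and 2 below, with a median of -0.13. Pck1 gave 22345 and 19334 on the normal arrays, 1556 on tumor 1 and 9496 on tumor 2, a difference of -2.43 (adjusted p = 0.246). Fbp1, a kidney and liver enzyme, split the tumors, with 5353 and 7445 on the normal arrays, 398 on tumor 1 and 16887 on tumor 2. The same split was seen in Slc2a2, a transporter of kidney, liver and gut, with 667 and 622 on the normal arrays, 2.56 on tumor 1 and 3259 on tumor 2, among 9 other sugar transporters of which 0 passed.

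Beyond the 9 hypoxia genes of the set, 20 further hypoxia response genes gave 1 past the test, 9 above, 6 below and a median of 0.39. Angptl4, a lipase inhibitor induced by fasting and by hypoxia, fell by 2.62 (adjusted p = 0.0402), from 5854 and 5282 to 834 and 958. Vegfa, the angiogenic factor, had a difference of -1.01 and Lox, which cross-links collagen, one of 1.85 (adjusted p = 0.106 and 0.12). The 10 hypoxia regulators gave 0 past the test and a median of -0.15. In the list of monocarboxylate transport, Emb, an accessory protein of monocarboxylate transporters that is also expressed in white blood cells, rose by 3.28 (adjusted p = 0.0441), and Bsg, the accessory protein of Slc16a1 and Slc16a3, had a difference of -0.32. Among the 9 other modifiers of glycolysis 0 passed and 0 lay above, and Gpd1 and Gpd2, which link glycolysis to glycerol, missed the threshold at -4.97 and -2.24 (adjusted p = 0.0793 and 0.0521). None of these 5 calls held when normal replicate 1 or 2 was left out, where 0 genes passed. With probe sets averaged, Angptl4 (-1.98, adjusted p = 0.0521), Gys1 (-1.28, adjusted p = 0.198) and Emb (2.41, adjusted p = 0.0626) missed the threshold, and Gys1 also missed it without the filter (adjusted p = 0.0577). Without the intensity trend in the fit these 5 calls and those of Slc2a1 and Pfkfb3 were all lost. Brown fat and fat cell markers were low on the same arrays as the lower lists.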

How the data were processed

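Total RNA of 2 normal ureter and 2 ureter tumor samples was hybridised to one-colour arrays, after labelling of 6 ug of RNA per the labels' protocols. The authors deposited signal intensity values per probe set on a linear scale, and the submitters' processing notes name MAS5, whose version and detection calls the sources used here do not give. With 2% of probe sets trimmed from either tail, the mean was 500 on every array, so values are relative to the rest of their array.

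Of 45101 probe sets 64 were controls, 34945 others had 1 gene symbol, 932 several and 9160 none here. Symbols of 34741 were updated through a RefSeq gene table. For each gene the brightest probe set naming it alone was used, by mean log2(signal + 16). Genes reaching the 40th percentile of that mean over the probe sets that are not controls, which is a signal of 54.6, entered a limma 3.58.1 fit (R 4.3.3) whose prior variance followed the mean signal. There were 2 residual and 2.11 prior degrees of freedom. Fold changes are on the log2(signal + 16) scale, which understates those of dim genes. An exact permutation test with 2 against 2 arrays cannot go below p = 0.333 and was not used. Of the 34 genes 5 were read by probe sets whose names mark probes shared between transcripts, and glycolytic genes have many pseudogenes, so these are uncertain. Of 19 genes with several bright probe sets, 4 had probe sets of opposite sign. The procedure was tested on simulated data in which both groups had the same spread for each gene. The tumor arrays here lay further apart than the normal ones, so the simulation cannot show how the test does on them.

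The members and lists were chosen with earlier results of these data known. All members are named whatever their result. From each list of related genes, the 4 of smallest unadjusted p, and the brightest, could be named. Alternatives were pseudocounts of 1 and 64, quantile normalization, median centring, other filters, other uses of probe sets, no intensity trend, a replicate block and leaving out each array. Figures were drawn with matplotlib 3.10.9.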

Additional observations from a re-analysis of the deposited data

How the results depend on the processing

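With 2 arrays per group, the calls rest on a variance shared across genes, and the number of arrays limits precision. The count of all genes past the test, 187, was 117 with averaged probe sets, 473 with every probe set, 2 without the intensity trend and 0 to 5502 when 1 array was left out. The count in the set of 34, which was 2, was 1 without the filter and 0 with averaged probe sets or without the trend, and it ran from 0 to 20 when 1 array was left out. With the replicate block 0 of all genes and 0 of the 34 passed, against 2253 and 7 at an unadjusted p under 0.05. Same-numbered arrays deviated together with r = 0.04 over genes. As 1 value from 2 arrays per group, it cannot show whether same-numbered samples shared an animal or a batch. The median difference of the set, -0.08, was -0.16 with a pseudocount of 1, 0.064 after quantile normalization, -0.18 after median centring, -0.20 with the filter at the 60th percentile and -0.15 to -0.0765 with 1 array left out. The cause of these moves was not tested, apart from the fewer samples, genes or degrees of freedom that some alternatives leave.

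Of 472 values of single genes of the set under an alternative, 409 kept direction and side of the threshold, 36 passed in addition, 11 no longer passed and 16 turned direction, in 9 genes, while the other 25 genes never turned. Quantile normalization turned Pgk1 (0.14), Pgam2 (0.053) and Slc16a3 (0.0750), averaging probe sets turned Pgk1 (0.55), and a pseudocount of 64 turned Pgam2 (0.34). Averaging also turned Ncstn (-0.11), Eloc (0.021) and Slc2a12 (0.39). With 1 array left out, the values ran from -0.87 to 0.31 for Epas1, -0.10 to 0.041 for Pgk1, -3.55 to 0.85 for Ldhb, -0.50 to 2.06 for Ndrg1, -0.11 to 4.78 for Egln3, -0.48 to 1.90 for Adm, -2.74 to 2.70 for Pgam2, -0.00514 to 0.45 for Car9 and -0.29 to 0.021 for Slc16a3. Among related genes they ran from -3.93 to 1.42 for Fbp1, -1.51 to 1.23 for Slc16a7, -1.12 to 2.76 for Ldhd, -0.38 to 0.99 for Fbp2, -5.15 to 2.31 for Slc2a2 and -3.82 to 0.56 for Slc2a5.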
